A study of Mus musculus with 15 samples.

Results

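IL-13 and IL-17A were compared as partners of IL-33 in primary mouse lung fibroblasts. The 3 libraries of cells given IL-33 with IL-13 were set directly against the 3 libraries of cells given IL-33 with IL-17A, 6 of the 15 libraries of the series. Genes were chosen by level alone. Of the 18078 genes in the files, 13110 reached 1 TPM, a length-scaled share of the library's reads, in at least 3 of the 6 libraries and were tested on the log2(TPM + 1) scale. The remaining 4968 were not tested.

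The series measured RNA of wild-type BALB/cJ lung fibroblasts left untreated or stimulated for 20 h with IL-33 alone, with IL-33 and 1 partner (IL-13 or IL-17A), or with IL-33 and both partners, called the triple combination. The series title names factors, secreted by these cells, that act on macrophages. Every library compared here therefore came from wild-type BALB/cJ cells that had IL-33 for 20 h, and the groups differ by the partner cytokine. The sources used here give no doses, animals, passages or culture dates, so a p-value here reflects spread among libraries that may be technical replicates.

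IL-33, a member of the IL-1 cytokine family set free by injured cells, signals through the receptor subunit ST2, the product of Il1rl1, to NF-kB and MAP kinases. IL-13 is the type 2 cytokine of allergic airways and worm infection. It binds a receptor made of IL-4Rα and IL-13Rα1, and the kinases there phosphorylate STAT6, a transcription factor that turns on eosinophil chemokines, arginase and its own decoy receptor. IL-17A is the signature cytokine of type 3 immunity. It signals through the adaptor Act1, stabilises short-lived cytokine mRNAs, and acts through IκBζ and C/EBP factors to raise neutrophil chemokines and antimicrobial proteins.

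By reads recovered from the TPM values, the 6 libraries held 11767755 to 15123269 reads. A read on a gene that spans 1 kb was worth 0.730 to 0.973 TPM. Mitochondrially encoded transcripts took 3.69% to 4.02% of TPM in 5 of the libraries and 5.53% in IL-33 with IL-17A replicate 1. That library stands apart among these 6, so results that rest on it are also given without it. Over the series it is 1 of 9 libraries with the higher share, 5.02% to 6.40%. The lower share, 3.69% to 4.09%, was found in 6 libraries, among them the other IL-33 with IL-17A replicates. The 14 fibroblast markers checked were all above 1 TPM, and their summed level was 12157 to 12514 TPM with IL-13 and 12656 to 14156 TPM with IL-17A. Of these, 3 were called higher with IL-17A (Col3a1, Pdgfra and Pdgfrb) and none higher with IL-13. Macrophage transcripts were found too: 14 markers summed to 18186 to 18398 TPM with IL-13 and 18909 to 20095 TPM with IL-17A. TPM here is scaled by gene span, so the sums of different lists are not compared with each other. In these bulk samples fewer cells of a type and less RNA per cell cannot be told apart, and the cell of origin of a transcript was not measured. Markers of epithelial, endothelial, lymphoid, granulocytic, smooth muscle and mesothelial cells summed to 2.52 to 46.5 TPM per list in these libraries, and those of mast cells and basophils to 115 to 146 TPM.

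Calls required an adjusted p under 0.05 from limma, a linear model that shares variance information across genes, with Benjamini-Hochberg adjustment over all 13110 tests. This called 1538 genes, which is 11.7% of those tested, with 733 (5.59%) higher with IL-13 and 805 (6.14%) higher with IL-17A. Most differences were small. The median absolute log2 difference of the called genes was 0.40, and 153 genes (1.17%) were called with a difference of 2-fold or more on the log2(TPM + 1) scale, 85 of them higher with IL-13 and 68 higher with IL-17A. In these directions 14 and 7 genes differed by 4-fold or more. The groups did not overlap for any called gene, nor for 37.2% of all genes tested. The number called changed when any library was left out. Such a fit has fewer libraries to test with, so a call can be lost while the difference hardly moves. It was 2034 without IL-33 with IL-17A replicate 1, 989 without replicate 2 and 852 without replicate 3, and 576, 630 and 626 without IL-33 with IL-13 replicate 1, 2 and 3. The number at 2-fold or more ranged from 137 to 162 in the same fits.

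**Figure D1:**
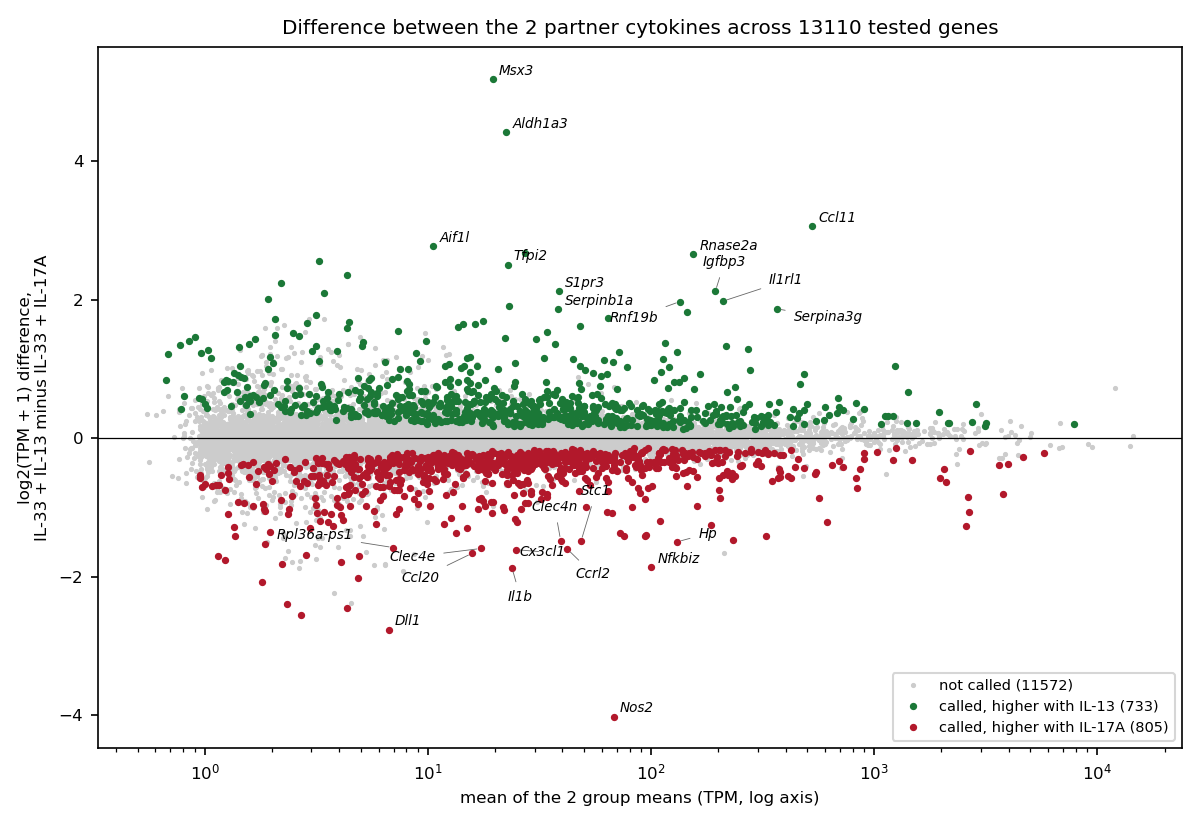
Log2(TPM + 1) difference, IL-33 with IL-13 minus IL-33 with IL-17A (vertical axis), against the mean of both group means in TPM (horizontal log axis), for the 13110 tested genes. Green points are the 733 genes called higher with IL-13 and red points the 805 called higher with IL-17A; the labelled genes are the 12 largest differences each way among protein-coding genes with at least 10 TPM in the higher group, led by Msx3 at 5.19 and Nos2 at -4.02.

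Promoter sequences are shown for some of the called genes. On the IL-13 side these are the IL-13 decoy receptor and a STAT-induced inhibitor. On the IL-17A side they are a chemokine, a cytokine and an antimicrobial protein. The last 3 were chosen after their values were seen. Each is 300 bases from RefSeq on GRCm38.p6, 250 before to 50 after the annotated start, written 5′ to 3′ along the gene. Capitals mark matches to 4 motifs searched on both strands: TTC and GAA with 4 bases between, the spacing preferred by STAT6; TTCNNNGAA, the spacing of other STATs; TTGCNNAA (TTNNGCAA on the other strand), a C/EBP form; and the NF-kB consensus.
Il13ra2 (chrX:147429143-147429442, minus strand): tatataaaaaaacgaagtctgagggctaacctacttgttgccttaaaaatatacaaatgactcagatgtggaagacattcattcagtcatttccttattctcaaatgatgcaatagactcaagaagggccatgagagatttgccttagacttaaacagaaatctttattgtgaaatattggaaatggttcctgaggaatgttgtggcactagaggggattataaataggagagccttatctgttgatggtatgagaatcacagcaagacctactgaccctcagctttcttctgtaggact
Cish (chr9:107296409-107296708, plus strand): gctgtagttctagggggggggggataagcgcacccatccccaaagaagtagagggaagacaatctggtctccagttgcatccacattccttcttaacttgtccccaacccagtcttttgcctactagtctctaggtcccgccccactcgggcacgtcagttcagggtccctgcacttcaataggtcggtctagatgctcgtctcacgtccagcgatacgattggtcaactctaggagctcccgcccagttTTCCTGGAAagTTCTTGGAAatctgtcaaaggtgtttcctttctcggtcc
Cxcl1 (chr5:90890995-90891294, plus strand): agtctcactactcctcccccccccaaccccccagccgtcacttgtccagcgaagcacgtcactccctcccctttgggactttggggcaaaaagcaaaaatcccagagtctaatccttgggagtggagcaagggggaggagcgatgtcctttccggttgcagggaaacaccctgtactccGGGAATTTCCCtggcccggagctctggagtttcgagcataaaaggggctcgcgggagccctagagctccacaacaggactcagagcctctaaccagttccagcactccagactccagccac
Il6 (chr5:30012864-30013163, plus strand): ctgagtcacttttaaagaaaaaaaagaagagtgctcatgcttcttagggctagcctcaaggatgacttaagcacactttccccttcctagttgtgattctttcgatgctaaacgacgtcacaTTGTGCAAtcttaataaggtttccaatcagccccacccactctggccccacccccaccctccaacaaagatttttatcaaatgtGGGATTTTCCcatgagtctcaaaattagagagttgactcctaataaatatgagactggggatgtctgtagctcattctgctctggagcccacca
Lcn2 (chr2:32387690-32387989, minus strand): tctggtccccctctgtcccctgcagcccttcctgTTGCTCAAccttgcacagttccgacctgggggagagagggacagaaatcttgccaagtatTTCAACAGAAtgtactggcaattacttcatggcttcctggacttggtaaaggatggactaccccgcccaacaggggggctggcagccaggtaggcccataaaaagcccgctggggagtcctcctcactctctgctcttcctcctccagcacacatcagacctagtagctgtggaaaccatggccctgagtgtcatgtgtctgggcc

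The Cish promoter held 2 matches to TTCNNNGAA, at 0 and 11 bases from the start. The Il13ra2 window held none of the 4 motifs. Cxcl1 held an NF-kB match 71 bases before the start, which overlaps another 70 bases before it. Il6 held a C/EBP match at 128 bases and an NF-kB match at 44 bases before the start. Lcn2 held a C/EBP match at 216 bases and a STAT6 spacing match at 156 bases before the start. A match describes letters and is not evidence of binding, and a window without a match says nothing about a factor.

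Over all 32851 RefSeq promoters of this length, 6.95% held the STAT6 spacing, 8.30% TTCNNNGAA, 10.8% TTGCNNAA and 8.46% the NF-kB consensus. Over the 11935 promoters found for 9443 of the tested genes, the shares were 5.36%, 6.62%, 8.45% and 10.6%. The 63 promoters found for 54 of the genes 2-fold higher with IL-13 held them at 15.9%, 7.94%, 12.7% and 14.3%. The 43 promoters found for 39 of the genes 2-fold higher with IL-17A held them at 6.98%, 2.33%, 25.6% and 20.9%. These shares were not tested.

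Of the 24 tested members of the STAT6 response list, 16 were called higher with IL-13 and none higher with IL-17A, with a median log2 difference of 0.91 against -0.03 over all genes tested. The other 8 were not called. Over all genes tested, 5.59% were called higher with IL-13 and 6.14% higher with IL-17A. Those shares stand beside every list count here and below. Retnla, Chil3 and Cdh1 reached 1 TPM only in the IL-13 libraries, so they passed the filter only through that group and had to differ. The count of 16 and the median of 0.91 include these members. With the filter at 5 TPM, 13 of the members that passed it were called. Between 14 and 17 were called when each library was left out in turn.

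Ccl11, which encodes eotaxin-1, the chemokine that draws eosinophils through CCR3, was the member with the greatest difference (ENSMUSG00000020676, mm10 chromosome 11, 82057823 to 82062955). It stood at 997, 913 and 923 TPM with IL-13 and at 122, 102 and 113 TPM with IL-17A. All IL-13 libraries lay far above all IL-17A libraries. The log2 difference was 3.06 ± 0.07 (SE, limma adjusted p = 2.51e-05), and the ratio of means was 8.40. Side by side, IL-33 alone held 55.0 ± 9.29 TPM (SD, n = 3) and the triple combination 1161 ± 47.0 TPM.

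Il1rl1 encodes ST2, the IL-33 receptor itself (chromosome 1, 40429570 to 40465415). Its level was 345, 327 and 335 TPM with IL-13 and 87.6, 78.1 and 87.8 TPM with IL-17A, a log2 difference of 1.98 ± 0.06 (limma adjusted p = 3.71e-05). The groups did not overlap, and the IL-17A libraries lay near the 65.2 ± 8.23 TPM of IL-33 alone. The triple combination held 367 ± 19.5 TPM.

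Il13ra2 encodes the decoy receptor that binds IL-13 with high affinity and does not signal through STAT6. It was 22.4, 21.1 and 23.2 TPM with IL-13 against 7.11, 6.40 and 5.78 TPM with IL-17A (log2 difference 1.65 ± 0.08, limma adjusted p = 0.000254). The groups did not overlap. The IL-17A libraries were nonetheless above the 2.91 ± 0.38 TPM of IL-33 alone, a difference not tested here.

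Cish, whose product damps STAT5 signalling and whose promoter is printed above, was 96.2, 94.8 and 107 TPM with IL-13 and 26.3, 31.9 and 29.6 TPM with IL-17A. The log2 difference was 1.73 ± 0.08 (limma adjusted p = 0.000254), without overlap. Socs1 and Socs3, inhibitors of Janus kinases, were higher with IL-13 by 1.02 ± 0.11 and 0.59 ± 0.05. Socs2, of the same family, was not called (log2 difference 0.16, limma adjusted p = 0.431). Other called members of the list were Postn, the matricellular protein periostin of asthmatic airways, at 1.29 ± 0.08, and Serpina3g, a protease inhibitor with near-identical copies that make its value uncertain, at 1.87 ± 0.03.

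Some members with a STAT6 history in macrophages also differed. Mrc1, the macrophage mannose receptor, averaged 146 TPM with IL-13 and 74.7 TPM with IL-17A, a log2 difference of 0.96 (limma adjusted p = 0.000639). Chil3 and Retnla, both secreted by alternatively activated macrophages, were called from very low levels: Chil3 averaged 1.67 TPM against 0.0148 TPM. Retnla had 12 reads over the 3 IL-13 libraries and none with IL-17A. With a floor of 3 reads over the IL-17A group, the ratio per read of the library totals was 4.14. That ratio leaves out the counting error of the 12 reads and is not a lower limit. On the log2 scale Retnla was 1.46 as fitted and 0.97 with that floor. Both values lie above the list median of 0.91, so the exchange could not change the median. Of the 13 tested macrophage markers, 2 were called higher with IL-13 (Mrc1 and Adgre1) and 3 higher with IL-17A (Itgam, Cd14 and Fcgr1), and Cx3cr1 was under 1 TPM in all 6 libraries. The part of macrophages in these differences was not tested.

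The list of receptors and proximal signalling had 26 tested genes, of which 17 were not called. The share called was 34.6%, against 11.7% of all genes tested, with 4 higher with IL-13 and 5 higher with IL-17A. Without a given IL-13 library the last number was 0 to 1, and without IL-33 with IL-17A replicate 2 or 3 it was 2. Il4ra, the shared signalling subunit, was 296 to 308 TPM with IL-13 and 301 to 309 TPM with IL-17A, overlapping ranges with a log2 difference of -0.02 ± 0.03 (limma adjusted p = 0.756) that turned to 0.01 with median-ratio scaling. Il13ra1, the other subunit of the IL-13 receptor, was 12.2 to 12.8 TPM with IL-13 and 16.0 to 18.0 TPM with IL-17A. It was called higher with IL-17A (log2 difference -0.39 ± 0.06, limma adjusted p = 0.0139). The call was lost when any 1 of the IL-13 libraries was left out (adjusted p up to 0.0663). Stat6 was at 110 to 114 TPM with IL-13 against 115 to 129 TPM with IL-17A and was not called (limma adjusted p = 0.189). Il17rc, a subunit of the IL-17A receptor, was not called either (limma adjusted p = 0.0533), though it was called without IL-33 with IL-17A replicate 2 at a log2 difference of 0.33. Il17ra, the other subunit, was 30.3, 34.2 and 35.0 TPM with IL-13 and 50.9, 43.4 and 47.5 TPM with IL-17A. Its log2 difference of -0.50 ± 0.08 (limma adjusted p = 0.0156) rose to an adjusted p of up to 0.0575 when single libraries were left out, and the call was lost without IL-33 with IL-17A replicate 3 or IL-33 with IL-13 replicate 1 or 2. Il6st, which encodes gp130, the shared subunit of the IL-6 family receptors, was 217 to 219 TPM with IL-13 and 109 to 123 TPM with IL-17A, a log2 difference of 0.93 ± 0.05.

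Of the 24 tested members of the IL-17 response list, 17 were called higher with IL-17A and 1 higher with IL-13, with a median log2 difference of -0.58. Leaving out each library gave 15 to 18 calls on the IL-17A side.

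Nos2, inducible nitric oxide synthase, had the greatest difference of the list and of all genes named on this side (chromosome 11, 78920787 to 78960254). It was 142, 123 and 122 TPM with IL-17A and 6.89, 6.57 and 7.57 TPM with IL-13. The ratio of means was 18.4 and the log2 difference -4.02 ± 0.08 (limma adjusted p = 1.39e-05). All IL-17A libraries were far above all IL-13 libraries, which were also under the 11.98 ± 0.47 TPM of IL-33 alone. The triple combination stood at 101 ± 3.60 TPM.

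Nfkbiz encodes IκBζ, the nuclear cofactor through which IL-17A acts on many of its targets. It was 164, 152 and 156 TPM with IL-17A and 42.2, 42.4 and 43.6 TPM with IL-13 (log2 difference -1.86 ± 0.04, limma adjusted p = 2.31e-05), without overlap. Zc3h12a, the endonuclease regnase-1 that degrades inflammatory mRNAs, was higher with IL-17A by 1.25 ± 0.04 on the log2 scale. Lcn2, the iron-binding antimicrobial protein lipocalin-2 whose promoter is printed above, was 1004, 771 and 799 TPM with IL-17A and 371, 351 and 379 TPM with IL-13 (log2 difference -1.22 ± 0.10, limma adjusted p = 0.00191). Its level was highest in IL-33 with IL-17A replicate 1, and the groups did not overlap. Saa3, an acute-phase serum amyloid whose family members share sequence, was 3387 to 3785 TPM with IL-17A and 1651 to 1788 TPM with IL-13.

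The single member on the other side was Mmp13, a collagenase: it was 570, 596 and 596 TPM with IL-13 and 380, 323 and 328 TPM with IL-17A (log2 difference 0.78 ± 0.07, limma adjusted p = 0.00204). The triple combination held 756 TPM on average. The 6 members not called included Cebpb at 3027 TPM with IL-13 and 3247 TPM with IL-17A (limma adjusted p = 0.691).

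**Figure D2:**
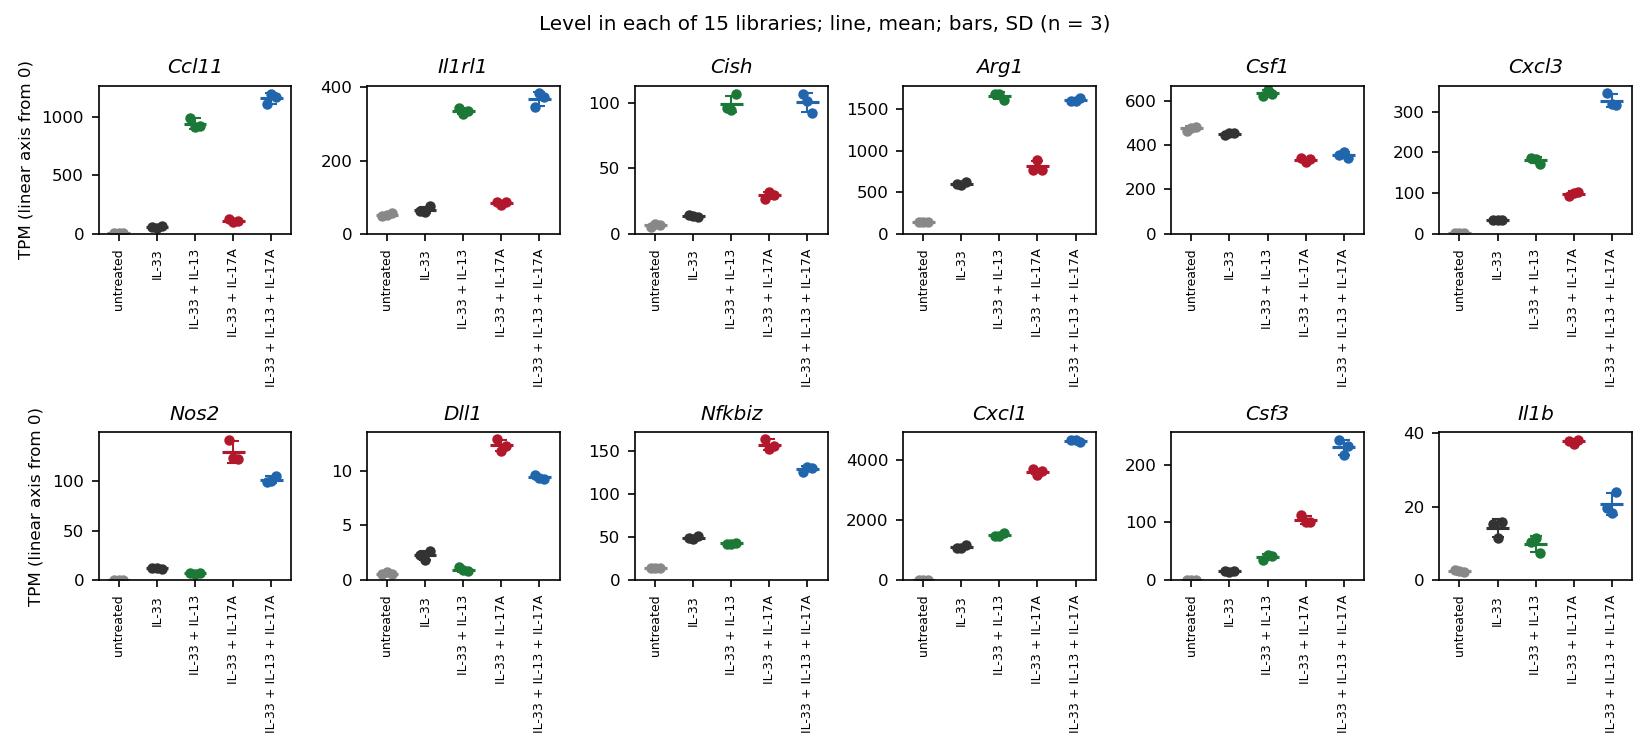
TPM (linear axes from 0) of 12 genes in all 15 libraries by treatment; points are libraries, lines group means and bars SD (n = 3). Upper row, genes higher with IL-13 than with IL-17A, such as Ccl11 at 997, 913 and 923 against 122, 102 and 113 TPM; lower row, genes higher with IL-17A, such as Nos2 at 142, 123 and 122 against 6.89, 6.57 and 7.57 TPM.

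Of 9 tested neutrophil chemokines and granulocyte factors, 5 were higher with IL-17A and 1 with IL-13, and both counts were the same without each library in turn. Cxcl1, a ligand of CXCR2 with the overlapping NF-kB matches shown above, was 3699, 3520 and 3644 TPM with IL-17A and 1478, 1471 and 1582 TPM with IL-13 (log2 difference -1.26 ± 0.04, limma adjusted p = 6.16e-05). Csf3, which encodes G-CSF, the growth factor of neutrophils, was 113, 100 and 101 TPM against 34.5, 44.3 and 41.8 TPM (log2 difference -1.36 ± 0.10, limma adjusted p = 0.00114). In both cases every IL-17A library lay above every IL-13 library. Cxcl5, another CXCR2 ligand, was higher with IL-17A by 0.81 ± 0.04, and Il6 by 0.87 ± 0.05.

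Cxcl3, a CXCR2 ligand of the same gene cluster on chromosome 5, was on the IL-13 side. It was 186, 183 and 173 TPM with IL-13 and 92.9, 101 and 103 TPM with IL-17A, a log2 difference of 0.87 ± 0.05 (limma adjusted p = 0.000591). Both groups were above the 33.2 ± 0.46 TPM of IL-33 alone and under the 327 ± 16.3 TPM of the triple combination. Cxcl2, also of that cluster, averaged 168 TPM with IL-13 and 165 TPM with IL-17A and was not called (limma adjusted p = 0.901). Reads that match several of these related chemokines may have been divided between them by a rule that the sources used here do not state.

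Of 13 tested chemokines for monocytes and eosinophils, 5 were called higher with IL-13, Ccl11 among them, and 1 higher with IL-17A. Without IL-33 with IL-17A replicate 2, or IL-33 with IL-13 replicate 1 or 3, the former count was 3. Ccl12, a CCR2 ligand, was 292, 312 and 288 TPM with IL-13 and 187, 174 and 174 TPM with IL-17A (log2 difference 0.74 ± 0.05, limma adjusted p = 0.000826), and Ccl9 was higher with IL-13 by 0.42 ± 0.03. Ccl2, the chief CCR2 ligand, was not called: it was 4170 to 4309 TPM with IL-13 and 3377 to 4301 TPM with IL-17A, with the lowest value in IL-33 with IL-17A replicate 1. Its log2 difference was 0.10 ± 0.10 (limma adjusted p = 0.559) and turned to -0.02 without that library. Ccl20, the CCR6 ligand for type 3 lymphocytes, was 21.1, 24.0 and 28.0 TPM with IL-17A and 10.03, 6.04 and 5.52 TPM with IL-13 (log2 difference -1.66 ± 0.22, limma adjusted p = 0.00881). Cx3cl1, fractalkine, and Cxcl16 were also higher with IL-17A, by 1.61 ± 0.12 and 0.58 ± 0.03.

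Secreted factors known to act on macrophages went both ways. Of 25 tested, 7 were called higher with IL-13 and 7 higher with IL-17A, with a median of -0.10; without IL-33 with IL-17A replicate 1 the counts were 7 and 10. Csf1 encodes M-CSF, the survival factor of macrophages (chromosome 3, 107741048 to 107760469). It was 624, 652 and 634 TPM with IL-13 and 342, 325 and 338 TPM with IL-17A (log2 difference 0.92 ± 0.04, limma adjusted p = 0.0001). The values of IL-33 alone, 453 ± 5.42 TPM, and of untreated cells, 476 ± 8.72 TPM, lay between, and the triple combination was at 354 ± 13.5 TPM. Csf2, which encodes GM-CSF, did not separate: it was 13.3, 14.2 and 14.8 TPM against 16.2, 16.6 and 13.7 TPM, overlapping ranges (limma adjusted p = 0.383).

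Osm, oncostatin M, was 69.5, 78.1 and 74.6 TPM with IL-13 and 42.9, 45.4 and 42.8 TPM with IL-17A (log2 difference 0.75 ± 0.06), whereas Il6 was 412, 389 and 401 TPM with IL-13 and 775, 722 and 699 TPM with IL-17A. Lif was also higher with IL-17A, by 0.37 ± 0.05. The inflammatory cytokines Il1b and Tnf, products of myeloid cells above all, were on the IL-17A side. Il1b was 37.9, 37.1 and 38.2 TPM with IL-17A and 10.3, 11.6 and 7.40 TPM with IL-13 (log2 difference -1.87 ± 0.15, limma adjusted p = 0.00138). Tnf was 19.6, 19.2 and 20.0 TPM against 7.20, 6.82 and 7.07 TPM (log2 difference -1.36 ± 0.05, limma adjusted p = 6.84e-05), beside 18.1 TPM in IL-33 alone and 18.2 TPM in untreated cells. Clec4e and Clec4n, which encode the C-type lectins Mincle and Dectin-2 of myeloid cells, were higher with IL-17A by 1.59 ± 0.07 and 1.48 ± 0.06. Clec4e averaged 26.4 TPM with IL-17A and 8.11 TPM with IL-13, beside 23.1 TPM in IL-33 alone and 16.3 TPM in untreated cells. Clec4n averaged 58.3 and 20.3 TPM, beside 44.5 TPM in IL-33 alone and 7.09 TPM in untreated cells. Summed macrophage markers are given above, and their part in these values was not tested.

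Of 23 tested NF-kB subunits, inhibitors and targets, 12 were called higher with IL-17A and 1 higher with IL-13, with a median log2 difference of -0.26. Without each library in turn 8 to 11 were called on the IL-17A side. Ier3, an early-response survival gene, was 3278 to 3532 TPM with IL-17A and 1850 to 1905 TPM with IL-13, and Vcam1, an adhesion molecule for leukocytes, was 176 to 180 TPM against 107 to 113 TPM. Nfkb1, which encodes the p105 precursor of p50, was the member on the IL-13 side: it was 26.6, 27.7 and 27.0 TPM with IL-13 and 19.0, 16.5 and 17.6 TPM with IL-17A (log2 difference 0.59 ± 0.06, limma adjusted p = 0.00296).

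Acute-phase and antimicrobial genes showed 9 of 17 tested higher with IL-17A and 3 higher with IL-13. Saa1 and Saa2 reached 1 TPM only in the IL-17A libraries, so they passed the filter only through that group and had to differ. The Saa2 call was also lost whichever library was left out. With the filter at 5 TPM, 6 were called higher with IL-17A and 3 higher with IL-13. Hp, haptoglobin, was 196, 189 and 197 TPM with IL-17A and 70.6, 68.7 and 65.3 TPM with IL-13 (log2 difference -1.49 ± 0.04, limma adjusted p = 3.71e-05). On the other side Serpina3n, an antichymotrypsin, was 230, 217 and 226 TPM with IL-13 and 85.8, 52.5 and 54.6 TPM with IL-17A (log2 difference 1.82 ± 0.19, limma adjusted p = 0.00378). IL-33 with IL-17A replicate 1 was the highest of its group there, still far under the IL-13 libraries. C3, the central component of complement, was 153, 151 and 162 TPM with IL-13 and 77.3, 65.4 and 68.2 TPM with IL-17A (log2 difference 1.14 ± 0.07). Cfb and Serping1, a protease of the alternative pathway and the C1 inhibitor, were higher with IL-17A by 0.90 ± 0.13 and 0.86 ± 0.11.

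Arginase makes ornithine and nitric oxide synthase makes nitric oxide from the same substrate, arginine. Arg1, the arginase of type 2 responses, was 1687, 1677 and 1611 TPM with IL-13 and 771, 886 and 772 TPM with IL-17A (log2 difference 1.04 ± 0.06, limma adjusted p = 0.000559), while Nos2 went the other way as given above. Neither pair of groups overlapped. Slc7a2, a cationic amino acid transporter that brings arginine into the cell, was 78.6, 79.2 and 76.2 TPM with IL-13 and 41.5, 40.6 and 42.1 TPM with IL-17A (log2 difference 0.90 ± 0.04). Gatm, which uses arginine to make the creatine precursor, was higher with IL-13 by 1.11 ± 0.06, and Ass1, which remakes arginine from citrulline, by 0.44 ± 0.04. Of 18 tested members of the list, 4 were called higher with IL-13 and 1 with IL-17A.

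The retinoid list held a gene that was nearly absent from the IL-17A libraries. Aldh1a3, a dehydrogenase that makes retinoic acid (chromosome 7, 66390890 to 66427517), was 43.9, 45.2 and 42.2 TPM with IL-13 and 0.956, 1.16 and 1.16 TPM with IL-17A. The log2 difference was 4.42 ± 0.06 (limma adjusted p = 6.91e-06). IL-33 alone held 0.793 ± 0.295 TPM and the triple combination 45.0 ± 1.35 TPM. Crabp2, a carrier of retinoic acid to its nuclear receptor, was 21.2, 24.1 and 22.5 TPM with IL-13 and 11.6, 9.59 and 10.4 TPM with IL-17A, and Dhrs3, which reduces retinal back to retinol, was higher with IL-13 by 0.72 ± 0.06. In all, 5 of 14 tested members were called higher with IL-13.

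Msx3, a homeobox gene known from the dorsal neural tube (chromosome 7, 140046157 to 140049089), had the greatest difference among the named genes. It was 35.5, 41.9 and 39.2 TPM with IL-13 and 0, 0.302 and 0 TPM with IL-17A. Those values stand for 121, 144 and 130 reads against 0, 1 and 0 reads. Msx3 reached 1 TPM only in the IL-13 libraries, so it passed the filter only through that group and had to differ. Per read of the library totals the ratio was 409, with an exact 95% interval of 73.0 to 16200. That interval covers counting error only and is not a test of the difference. The triple combination held 26.3 ± 2.06 TPM and IL-33 alone 0.234 ± 0.203 TPM.

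Other genes with the greatest differences toward IL-13 lay outside the classical STAT6 list. Aif1l, an actin-binding protein, was 19.8, 20.3 and 17.4 TPM with IL-13 and 1.84, 2.21 and 1.82 TPM with IL-17A. Tfpi2, a matrix-bound serine protease inhibitor, was 38.6 to 40.1 TPM against 5.49 to 7.06 TPM, and S1pr3, a receptor for sphingosine-1-phosphate, was 60.1 to 66.0 TPM against 12.9 to 14.4 TPM. Igfbp3, a carrier of insulin-like growth factors, was 302 to 324 TPM against 68.2 to 76.6 TPM. Rnf19b, a ubiquitin ligase, was 214 to 217 TPM against 52.4 to 56.5 TPM, the latter near the 53.9 ± 0.89 TPM of IL-33 alone and the 57.1 ± 0.48 TPM of untreated cells. Serpinb1a, an inhibitor of neutrophil serine proteases, was higher with IL-13 by 1.86 ± 0.05. Rnase2a, an eosinophil-type ribonuclease of a multigene family, was higher by 2.65 ± 0.09, and its near-identical copies make the value uncertain.

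On the IL-17A side, Dll1, a ligand of Notch receptors, was 12.9, 11.8 and 12.3 TPM with IL-17A and 1.17, 0.896 and 0.836 TPM with IL-13 (log2 difference -2.76 ± 0.09, limma adjusted p = 4.9e-05). IL-33 alone held 2.27 ± 0.39 TPM and the triple combination 9.39 ± 0.17 TPM, so the groups with IL-17A were those with the high values. Stc1, stanniocalcin, a secreted glycoprotein, was 85.2, 61.5 and 69.6 TPM with IL-17A and 24.1 to 25.5 TPM with IL-13, and Ccrl2, a receptor that binds chemerin, was 54.6 to 69.6 TPM against 17.7 to 22.4 TPM. Rpl36a-ps1, whose symbol marks a copy of a ribosomal protein gene, was called as well (limma adjusted p = 0.0476), but its call was lost without any of 5 of the 6 libraries, with adjusted p up to 0.146, and its near-identical copies make the value uncertain.

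Matrix genes went both ways: of 39 tested collagens and matrix genes, 11 were called higher with IL-17A and 5 higher with IL-13, with a median of -0.19. Without IL-33 with IL-17A replicate 1 the counts were 18 and 7, and without IL-33 with IL-13 replicate 1 or 3 the IL-17A side held 7. Thbs2, thrombospondin-2, was 504, 453 and 466 TPM with IL-17A and 180, 170 and 180 TPM with IL-13 (log2 difference -1.42 ± 0.05, limma adjusted p = 8.08e-05). The IL-17A libraries lay near the 483 ± 11.8 TPM of IL-33 alone and the 483 ± 16.1 TPM of untreated cells, and the triple combination held 204 ± 14.3 TPM. Has2, a hyaluronan synthase, and Col6a3 were higher with IL-17A by 0.79 ± 0.06 and 0.52 ± 0.04.

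Postn was the matrix gene furthest to the IL-13 side, at 389, 377 and 395 TPM with IL-13 and 179, 149 and 146 TPM with IL-17A. Lox, the enzyme that crosslinks collagen, was 3407, 3342 and 3335 TPM with IL-13 and 2571, 2408 and 2165 TPM with IL-17A (log2 difference 0.50 ± 0.06, limma adjusted p = 0.00756). Col1a1, the main fibrillar collagen, was not called. It was 4060, 4084 and 3938 TPM with IL-13 and 4163, 5371 and 4767 TPM with IL-17A (log2 difference -0.24 ± 0.09, limma adjusted p = 0.159). Leaving out each library in turn gave differences from -0.33 to -0.15, with adjusted p up to 0.331. The former was without IL-33 with IL-17A replicate 1, the lowest of its group, where the gene was called (adjusted p = 0.0247), and the latter without replicate 2, the highest (adjusted p = 0.238).

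Of 28 tested metalloproteinases and inhibitors, 4 were called higher with IL-13 and 7 higher with IL-17A. Without IL-33 with IL-17A replicate 1 the counts were 7 and 8. Adamts15, called on the IL-13 side, reached 1 TPM only in the IL-13 libraries, so it passed the filter only through them and had to differ. Mmp9, a gelatinase, was 90.8, 83.7 and 83.6 TPM with IL-17A and 38.8, 41.0 and 41.6 TPM with IL-13 (log2 difference -1.07 ± 0.05), and Mmp3, stromelysin-1, was higher with IL-17A by 0.57 ± 0.04. Adamts4, an aggrecanase, was 147, 154 and 156 TPM with IL-17A and 68.1, 66.2 and 63.7 TPM with IL-13. Timp2, an inhibitor of these enzymes, was on the IL-13 side at 0.33 ± 0.03. Timp1 was 3271 to 3436 TPM with IL-13 and 2248 to 3026 TPM with IL-17A and was not called (limma adjusted p = 0.101), with the lowest value in IL-33 with IL-17A replicate 1; without that library the adjusted p was 0.0485.

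Of 24 tested contractile and TGF-beta response genes, 37.5% were called (11.7% of all genes tested), 5 higher with IL-13 and 4 higher with IL-17A. The IL-13 side held 10 without IL-33 with IL-17A replicate 1, 3 without its replicate 2 or 3, and 2 without any of the IL-13 libraries. Ccn4 and Ccn5, matricellular proteins of the WNT-induced group, were higher with IL-17A by 1.42 ± 0.08 and 1.42 ± 0.07. Ankrd1, a target of the YAP coactivators, was 82.2, 89.1 and 83.1 TPM with IL-13 and 43.2, 35.4 and 36.3 TPM with IL-17A (log2 difference 1.13 ± 0.08), beside 141 TPM in IL-33 alone and 193 TPM in untreated cells. Acta2, smooth muscle actin, was 735 to 762 TPM against 626 to 724 TPM and was not called (limma adjusted p = 0.149), though it was without IL-33 with IL-17A replicate 1 (adjusted p = 0.0269).

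Of 17 tested lipid mediator genes, 41.2% were called (11.7% of all genes tested), 4 higher with IL-13 and 3 higher with IL-17A. The other 10 were not called. Ptgs2, the inducible cyclooxygenase, was 2536, 2285 and 2293 TPM with IL-17A and 1597, 1555 and 1614 TPM with IL-13 (log2 difference -0.58 ± 0.05, limma adjusted p = 0.00191). Ptgis, which turns its product into prostacyclin, was 34.8, 34.3 and 31.7 TPM with IL-13 and 14.7, 15.9 and 15.4 TPM with IL-17A (log2 difference 1.08 ± 0.06, limma adjusted p = 0.000315). Ltc4s, the synthase of leukotriene C4, was 75.4, 69.2 and 74.2 TPM with IL-13 and 20.8, 23.8 and 24.4 TPM with IL-17A (log2 difference 1.63 ± 0.07, limma adjusted p = 0.000211). None of these groups overlapped. Ptgfr, a prostaglandin F receptor, was higher with IL-17A by 0.62. The prostacyclin receptor gene Ptgir and the thromboxane synthase gene Tbxas1 were called on the IL-13 side at 0.57 and 0.36. The Ptgir call was lost without any library but IL-33 with IL-13 replicate 2, and the Tbxas1 call without any IL-13 library (adjusted p up to 0.0902 and 0.0658). The IL-13 count was 2 without IL-33 with IL-13 replicate 1 or 3.

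**Figure D3:**
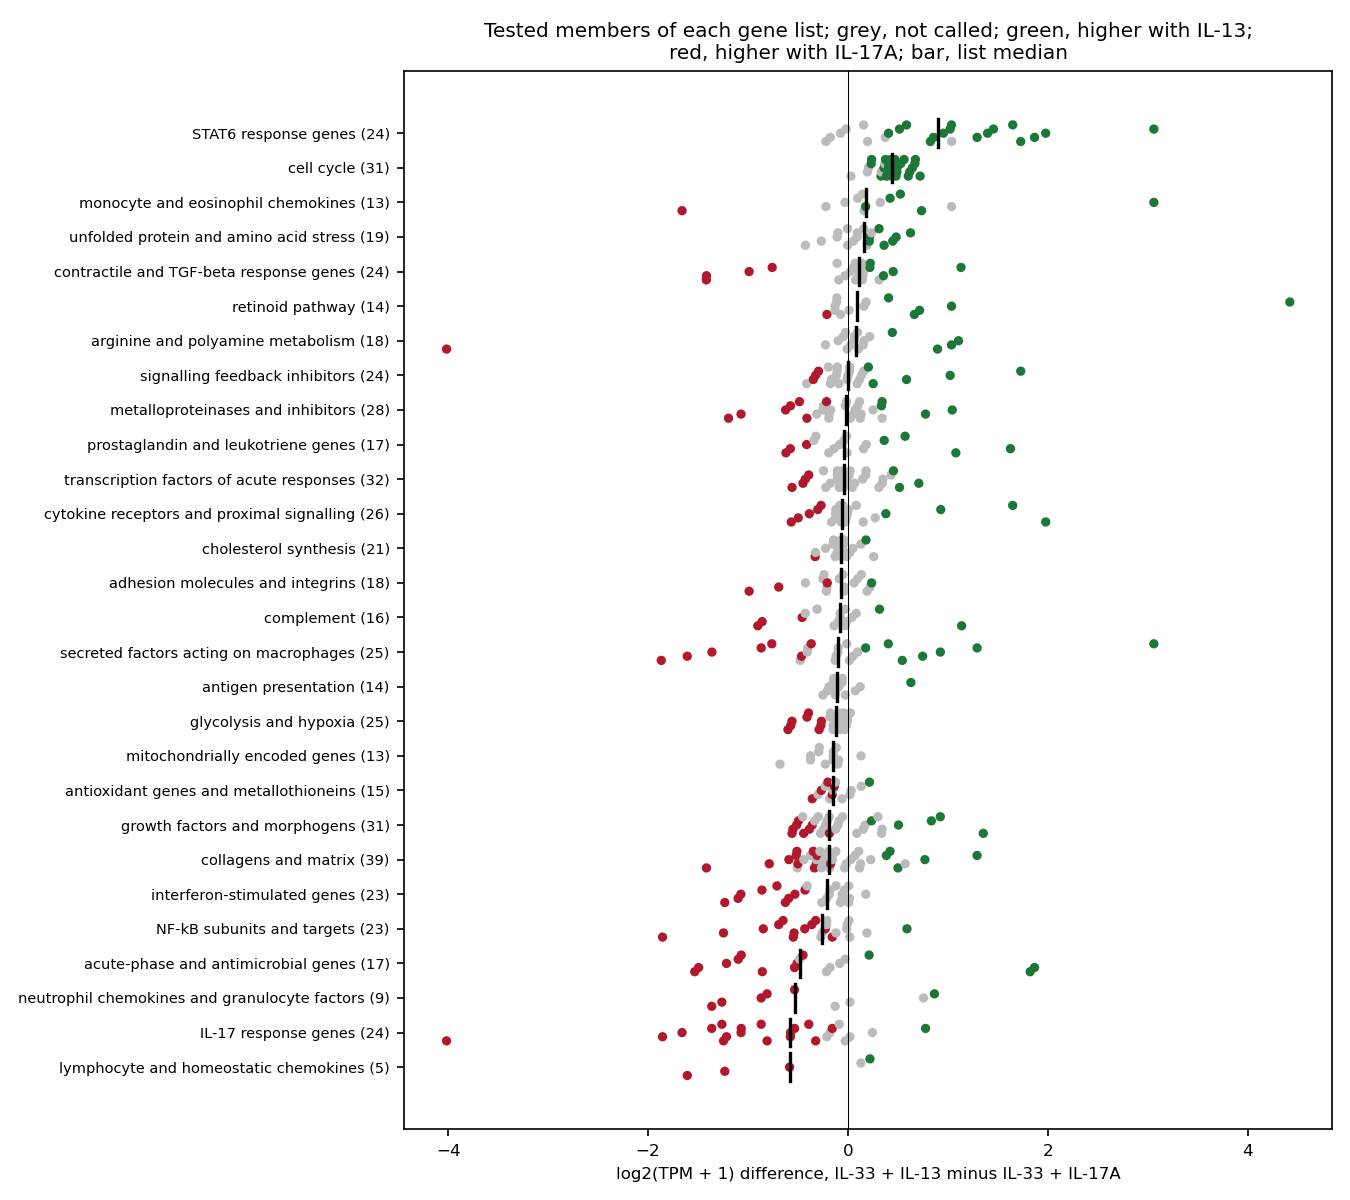
Log2(TPM + 1) difference, IL-33 with IL-13 minus IL-33 with IL-17A, of each tested member of the 28 gene lists, which are ordered by their median (black bars); the number tested stands after each name. Green points were called higher with IL-13, red points higher with IL-17A and grey points neither. The STAT6 list, with Retnla, Chil3 and Cdh1 included, has its median at 0.91 and no red point. The IL-17 list has its median at -0.58.

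Of 31 tested cell cycle genes, 26 were called higher with IL-13 and none higher with IL-17A, with a median log2 difference of 0.44. Relative to each gene's mean over the 6 libraries, the median level was 1.14, 1.15 and 1.18 in the IL-13 libraries and 0.867, 0.826 and 0.849 in the IL-17A libraries. Rrm2, a subunit of ribonucleotide reductase, was 262, 263 and 285 TPM with IL-13 and 157, 181 and 170 TPM with IL-17A (log2 difference 0.67 ± 0.07, limma adjusted p = 0.00273), and Cdc20, an activator of the anaphase-promoting complex, was higher with IL-13 by 0.72 ± 0.07. Mki67 was among the 5 not called, at 50.2 TPM against 43.7 TPM. The count on the IL-13 side was 28 without IL-33 with IL-17A replicate 1, 21 and 18 without replicates 2 and 3, and 13, 14 and 13 without IL-33 with IL-13 replicate 1, 2 and 3. It remained 0 on the IL-17A side in all of these.

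**Figure D4:**
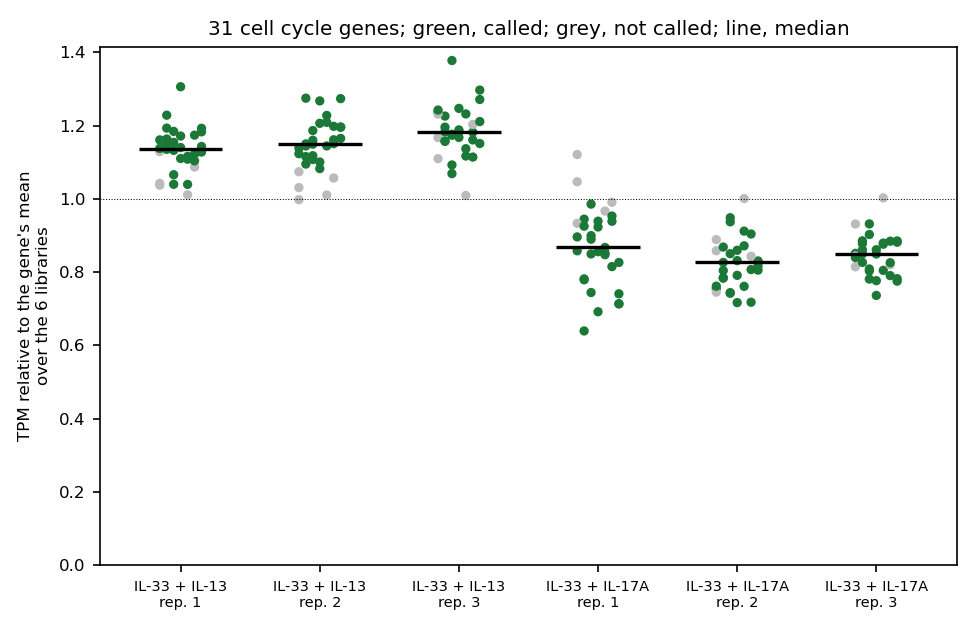
TPM of the 31 cell cycle genes relative to each gene's mean over the 6 libraries (vertical axis, linear from 0), by library; green points were called, grey points were not, and black lines are the medians over genes. The medians are 1.14, 1.15 and 1.18 in the IL-13 libraries and 0.867, 0.826 and 0.849 in the IL-17A libraries.

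Interferon-stimulated genes were on the IL-17A side or not called, 9 of 23 tested against none, from low levels. Gbp3, a guanylate-binding GTPase, was 5.39, 5.38 and 5.26 TPM with IL-17A and 2.41, 2.39 and 2.68 TPM with IL-13 (log2 difference -0.86 ± 0.06, limma adjusted p = 0.00113). Ifit1 was higher with IL-17A by 1.07 ± 0.14. The count on the IL-17A side was 3, 4 and 5 without IL-33 with IL-13 replicate 3, 2 and 1, and 4 without IL-33 with IL-17A replicate 3. Cxcl10, a chemokine for activated T cells, was 10.8, 7.48 and 7.46 TPM with IL-17A and 2.29, 3.79 and 3.14 TPM with IL-13. It averaged 9.89 TPM in IL-33 alone and 6.86 TPM in untreated cells. The log2 difference was -1.23 ± 0.19 (limma adjusted p = 0.013), and the call was lost without IL-33 with IL-13 replicate 3 (adjusted p = 0.0544).

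Glycolysis and hypoxia genes were higher with IL-17A in 8 of 25 tested and higher with IL-13 in none. Vegfa, the vascular growth factor induced by hypoxia, was 464, 449 and 439 TPM with IL-17A and 299, 319 and 299 TPM with IL-13 (log2 difference -0.56 ± 0.04), and Pfkfb3, an activator of glycolysis, was higher with IL-17A by 0.60 ± 0.06. The count was 5, 4 and 4 without IL-33 with IL-13 replicate 1, 2 and 3. Unfolded protein and amino acid stress genes were higher with IL-13 in 7 of 19, a count of 3 without IL-33 with IL-17A replicate 2 or 3 and of 1, 2 and 2 without IL-33 with IL-13 replicate 1, 2 and 3. Psat1, an enzyme of serine synthesis, was 45.7, 43.9 and 45.4 TPM with IL-13 and 28.6, 28.4 and 29.4 TPM with IL-17A (log2 difference 0.63 ± 0.04).

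Growth factors and morphogens went both ways, with 5 of 31 tested higher with IL-13 and 8 higher with IL-17A. Sfrp1, a secreted antagonist of WNT proteins, was 55.0, 53.7 and 52.5 TPM with IL-13 and 21.7, 18.6 and 21.01 TPM with IL-17A (log2 difference 1.35 ± 0.07, limma adjusted p = 0.000254), whereas Wnt5a was higher with IL-17A by 0.55 ± 0.05. Hbegf, a ligand of the EGF receptor, was 84.5, 85.1 and 81.3 TPM with IL-13 and 42.4, 45.5 and 42.9 TPM with IL-17A. Ereg, another ligand of that receptor, was on the opposite side at 0.49 ± 0.05. The IL-13 side held 7 without IL-33 with IL-17A replicate 1 and 3 without IL-33 with IL-13 replicate 1 or 3.

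None of 13 tested mitochondrially encoded genes, 1 of 14 antigen presentation genes and 2 of 21 cholesterol synthesis genes were called, against 11.7% of all genes tested. In lists of this size, such counts are not a result about their genes. With a term for the lower mitochondrial share in a fit to all 15 libraries, 4 cholesterol genes were called higher with IL-17A and none higher with IL-13. Without IL-33 with IL-17A replicate 1, 1 antigen presentation gene was higher with IL-13 and 2 higher with IL-17A, and 1 and 3 cholesterol genes were. Without IL-33 with IL-13 replicate 3, 1 mitochondrially encoded gene was called higher with IL-17A. Without each of the 5 libraries other than IL-33 with IL-17A replicate 1, no cholesterol gene was called, and the antigen presentation call was kept only without IL-33 with IL-17A replicate 3.

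Levels in the other groups are set beside those of the 2 compared groups, without a test. The groups also differ in the mitochondrially encoded share of TPM. It was 3.69% to 4.02% with IL-13, 3.91% to 5.53% with IL-17A and 5.02% to 5.74% in IL-33 alone. It was 4.09% to 5.27% in the triple combination and 6.03% to 6.40% in untreated cells. Its part in the placements here and above was not tested. Of the 85 genes 2-fold higher with IL-13, the mean of IL-33 alone lay below both compared groups for 26, between them for 56 and above both for 3. The triple combination lay below both for 4, between them for 53 and above both for 28. Of the 68 genes 2-fold higher with IL-17A, IL-33 alone lay below both for 8, between for 51 and above both for 9. The triple combination lay below both for 4, between for 56 and above both for 8. Csf3 and Cxcl3, which lean to different partners, were both above either pair in the triple combination, at 231 ± 13.2 and 327 ± 16.3 TPM.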

How the data were processed

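RNA was measured in 15 libraries of primary lung fibroblasts from BALB/cJ mice, 3 in each of 5 groups, of which 6 were compared here. The authors deposited TPM for 18078 genes per library. Per the submitters' processing notes, HISAT2 (no version given) and the mouse build mm10 were used. Quantifier, strand use, multi-mapping rule and filters: not given in the sources used here. In the files, TPM divides by the gene span from start to end, introns included, so levels of different genes are not compared. TPM times span gave whole reads within 0.05 for 88.6% to 89.8% of values up to 1000 reads in the 6 libraries, from which depth (11767755 to 15123269 reads) was computed. Each library is scaled to a fixed total, so total RNA per cell is not measured, and near-identical gene copies are uncertain.

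Genes reaching 1 TPM in at least 3 of the 6 libraries were fitted with limma 3.58.1 (R 4.3.3, trend and robust options) on log2(TPM + 1), a pseudocount of 1 TPM that understates changes of low genes. Differences are given ± SE, and calls need a Benjamini-Hochberg adjusted p under 0.05 over 13110 genes. The test was also run on simulated reads with the same dispersion for every gene and no library set apart. That run therefore does not show how the test behaves in these libraries. The labels give no replicate numbers; replicates were numbered in accession order.

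The comparison, the 28 gene lists (534 tested genes), the markers and the naming rule were chosen with earlier results of these data known. Named were the 12 largest called differences each way among protein-coding genes with at least 10 TPM and no overlap, up to 4 called members of each list each way, and a fixed set of receptors, ligands and matrix genes. Mrc1, Chil3, Retnla, Adgre1, Itgam, Cd14, Fcgr1, Cx3cr1, Cebpb, Cxcl2 and Mki67 were named beside that rule, as markers or list members. Symbols and coordinates came from the files, and 18062 identifiers were found in GENCODE vM21. Promoters came from RefSeq (GRCm38.p6). Those of Ccl11, Csf3, Cxcl5 and Nfkbiz, which the naming rule asked for, were not analysed here. Alternatives were other pseudocounts, filters and scalings, fits to all 15 libraries, each library left out, and limma voom on recovered reads, which was chosen after seeing the data. Tables were made with numpy 2.4.6, scipy 1.17.1 and pandas 2.3.3 under Python 3.11.15.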

Additional observations from a re-analysis of the deposited data

How the results depend on the processing

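The number of genes called, 1538, was 1428 to 1711 under another filter, pseudocount, scaling or variance option, 2362 in a fit to all 15 libraries (1306 higher with IL-17A), 2566 in that fit with a term for the lower mitochondrial share (1270 higher with IL-13, 1296 higher with IL-17A) and 2523 with limma voom on recovered reads (1274 and 1249). Leaving out each library gave 576 to 2034 called, 294 to 1067 higher with IL-13, 282 to 967 higher with IL-17A and 137 to 162 at 2-fold or more. Those at 2-fold or more fell from 153 to 69 with a pseudocount of 5 TPM, which shrinks differences of low genes, and were 197 with 0.1 TPM and 209 with limma voom. Of the 153, between 130 and 141 were also called without each library. Of 147 named genes that were called, 104 kept their call without each library in turn and 125 under every alternative with all libraries; of the 43 lost at least once, 39 had an absolute log2 difference under 1, and 7 were lost without IL-33 with IL-17A replicate 1. Reversals were limited to genes not called: Il4ra was 0.01 with median-ratio scaling (0.0139) and 0.0095 with limma voom, and Ccl2 ranged from -0.0157 (without IL-33 with IL-17A replicate 1) to 0.1587 when libraries were left out. The cause was not tested. Counts of called list members moved by over 1.5 times in some fits with all libraries. With a term for the mitochondrial share and with limma voom, collagens and matrix genes were 10 and 11 higher with IL-13 and 22 and 19 higher with IL-17A, which numbered 19 in the fit to all 15 libraries as well. Contractile genes higher with IL-13 numbered 10 in both and 9 in the fit to all 15 libraries, and arginine genes 7 and 8. Metalloproteinase genes higher with IL-17A numbered 13 in the fit to all 15 libraries and 11 with the term, lipid mediator genes 5 in both and with limma voom, and growth factors 14 with limma voom. Transcription factors higher with IL-13 were 6 to 9 in the fits to all 15 libraries, with median-ratio scaling and with limma voom, monocyte and eosinophil chemokines higher with IL-13 were 8 with limma voom, and stress genes higher with IL-13 were 4 with median-ratio scaling or without limma's trend and robust options. No paired analysis was possible because the labels give no replicate numbers and accession order pairs nothing. With 3 libraries a group and no labelled animals, small differences rest on few degrees of freedom, and values under about 3 TPM rest on few reads in short genes.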

Other observations

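Klf4, a Krüppel-like factor that antagonises proliferation in many cells, was 194, 196 and 188 TPM with IL-13 and 119, 123 and 110 TPM with IL-17A (log2 difference 0.71 ± 0.05, limma adjusted p = 0.00092). Cebpd, a C/EBP factor of the acute-phase response, was 556, 556 and 558 TPM with IL-13 and 695, 752 and 746 TPM with IL-17A (log2 difference -0.39 ± 0.04, limma adjusted p = 0.00318). In both cases the groups did not overlap. Of 32 tested transcription factors of acute responses, 21.9% were called (11.7% of all genes tested), 3 higher with IL-13 and 4 higher with IL-17A. Without IL-33 with IL-17A replicate 1 these counts were 6 and 5, and without each other library 1 to 2 on both sides.

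Cish, Socs1 and Socs3 of the signalling feedback inhibitors are given above, on the IL-13 side. On the IL-17A side, Spry4, which restrains signalling of receptor tyrosine kinases, was 29.3, 29.3 and 29.1 TPM with IL-17A and 23.03, 22.8 and 23.6 TPM with IL-13 (log2 difference -0.32 ± 0.04, limma adjusted p = 0.00578). Rgs2, a regulator of G protein signalling, was 104, 108 and 110 TPM with IL-17A and 87.0, 79.7 and 86.5 TPM with IL-13 (log2 difference -0.35 ± 0.05, limma adjusted p = 0.0093). Of 24 tested feedback inhibitors, 33.3% were called (11.7% of all genes tested), 5 higher with IL-13 and 3 higher with IL-17A. The former count was 3 without each of the 5 libraries other than IL-33 with IL-17A replicate 1.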
